A study of Mus musculus with 30 samples.

Results

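The 10 genes described here, Cldn5, Pecam1, Cdh5, Kdr, Flt1, Tek, Tie1, Emcn, Vwf and Eng, are known markers of the endothelial cells that line blood vessels. They were taken by symbol from a table of 56686 mouse genes, not by measured values, and each symbol matched 1 row. The table holds total RNA sequencing of lumbar dorsal root ganglia (L3 to L5, both sides) from male C57BL/6J mice of wild type genotype, with values in TPM (a level per length of transcript, scaled to a fixed total in each library). It has 30 libraries in 10 groups of 3: saline, CVAD, cyclophosphamide and dexamethasone on day 2, and these plus vincristine and doxorubicin on day 8. CVAD is the chemotherapy combination of cyclophosphamide, vincristine, doxorubicin (Adriamycin) and dexamethasone. Doses, schedules and ages were not given in the sources used here. All mice were perfused through the heart with RNAlater before dissection. The labels do not say whether a library is 1 animal or a pool, so the p-values measure only the spread between samples.

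Endothelial cells hold their vessel together through junction proteins. They read growth signals through the VEGF receptors, which drive sprouting and permeability. The TIE receptors keep vessels quiet: TIE2 binds angiopoietins, and TIE1 modulates TIE2. Sensory ganglia are known for dense, leaky capillaries, so that drugs in the blood reach the neuron bodies more easily than in the brain. Many endothelial genes are known targets of ETS factors such as Erg, which bind a GGAA core.

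All 10 genes were present in every library, at 7.87 TPM or more, and none differed between a drug and saline, or between CVAD and a single drug, past an adjusted p of 0.05. The intervals were narrow for single genes: over the 80 comparisons of a gene with same-day saline, the 95% intervals lay between 0.572-fold and 1.47-fold, on the log2(TPM + 1) scale of the fit, so a fold of 2 in either direction lay outside each one. The group that stood lowest was cyclophosphamide on day 8. There 8 of 10 genes lay below saline and 2 of 10 above it, beside 37.9% of all tested genes above it. Its summed level was 257 ± 29.3 TPM (SD, n = 3) against 298 ± 33.4 in saline. Libraries 1 to 8 by the labels' numbering are all of CVAD and cyclophosphamide of day 2 and the first pair of dexamethasone of day 2. A fit with a term for these libraries was added after the data were seen, and its values (with the library term) stand beside the single-gene differences and member medians described below that it turned or moved by over 1.5 times; counts and medians of the lists are without it. Only the dexamethasone group has libraries on both sides of that split. The term is therefore estimated from replicates 1 and 2 of dexamethasone of day 2 against replicate 3 alone. For each gene it moves CVAD and cyclophosphamide of day 2 by the same amount.

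Promoters are shown for the genes that hold either of the ETS motif forms searched here, since ETS factors are known regulators of endothelial genes. Other sequences with a GGAA core were not searched for, and windows not shown, such as those of Flt1 and Eng, also hold GGAA. Whether the motif bears on any value of these data was not tested. RefSeq, on GRCm38.p6, gave promoters for 7 of the 10 genes. The 250 bases before the start were searched on both strands. One form of the ETS motif was CCGGAA, which reads TTCCGG on the opposite strand. A longer form was searched by its own letters, ACAGGAA, and reads on the opposite strand as TTCCTGT. For the GC box the search used the letters GGGCGG. For the TATA box it used the letters TATAAA, and no match of any motif overlaps another in these windows. In the sequences, capitals mark only these ETS forms, all read on the opposite strand, and each sequence runs 5′ to 3′ on the strand of the gene. The windows are chr5:75978456-75978705 on the minus strand for Kdr, chr3:137340828-137341077 on the plus strand for Emcn and chr4:118489850-118490099 on the minus strand for Tie1.

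Kdr: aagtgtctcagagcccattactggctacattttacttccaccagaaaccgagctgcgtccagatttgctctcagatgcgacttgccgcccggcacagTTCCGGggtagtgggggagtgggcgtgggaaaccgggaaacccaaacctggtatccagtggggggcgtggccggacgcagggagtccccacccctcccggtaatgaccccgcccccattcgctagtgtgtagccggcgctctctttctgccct

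Emcn: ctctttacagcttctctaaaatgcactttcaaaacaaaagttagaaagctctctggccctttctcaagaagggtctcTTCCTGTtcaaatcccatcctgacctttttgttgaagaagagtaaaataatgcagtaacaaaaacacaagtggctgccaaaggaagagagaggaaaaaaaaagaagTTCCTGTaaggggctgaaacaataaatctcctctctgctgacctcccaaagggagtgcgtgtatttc

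Tie1: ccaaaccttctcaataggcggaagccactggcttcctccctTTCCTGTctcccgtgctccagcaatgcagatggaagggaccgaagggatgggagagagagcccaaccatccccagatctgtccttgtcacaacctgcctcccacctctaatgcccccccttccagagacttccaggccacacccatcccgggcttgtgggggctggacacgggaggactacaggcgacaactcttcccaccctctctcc

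CCGGAA was in 1 of the 7 windows (Kdr) and in 12.03% of 32851 mouse promoters. ACAGGAA was in 2 of 7 (Emcn, at 2 places, and Tie1) and in 7.20% of all. GGGCGG was in 3 of 7 (Kdr, Flt1 and Cldn5) and in 32.7% of all. TATAAA was in 1 of 7 (Flt1) and in 12.4% of all. A match is a description of the letters in the window and does not show binding.

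By mean over the 30 libraries, Cdh5 stood highest at 44.5 TPM, with Vwf at 42.0, Flt1 at 38.7, Cldn5 at 37.0, Eng at 34.9 and Pecam1 at 29.4. Tie1 at 18.3, Kdr at 14.4 and Emcn at 12.7 TPM followed, and Tek was lowest, between 7.87 and 14.9 TPM. The coefficient of variation over all libraries ran from 9.33% for Flt1 to 17.2% for Vwf. Gene positions below are those of the deposited table, which do not match GRCm38 (mm10); they were taken as GRCm39, the other build that the submitters' processing notes name. Levels in each library are shown by group.

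**Figure D1:**
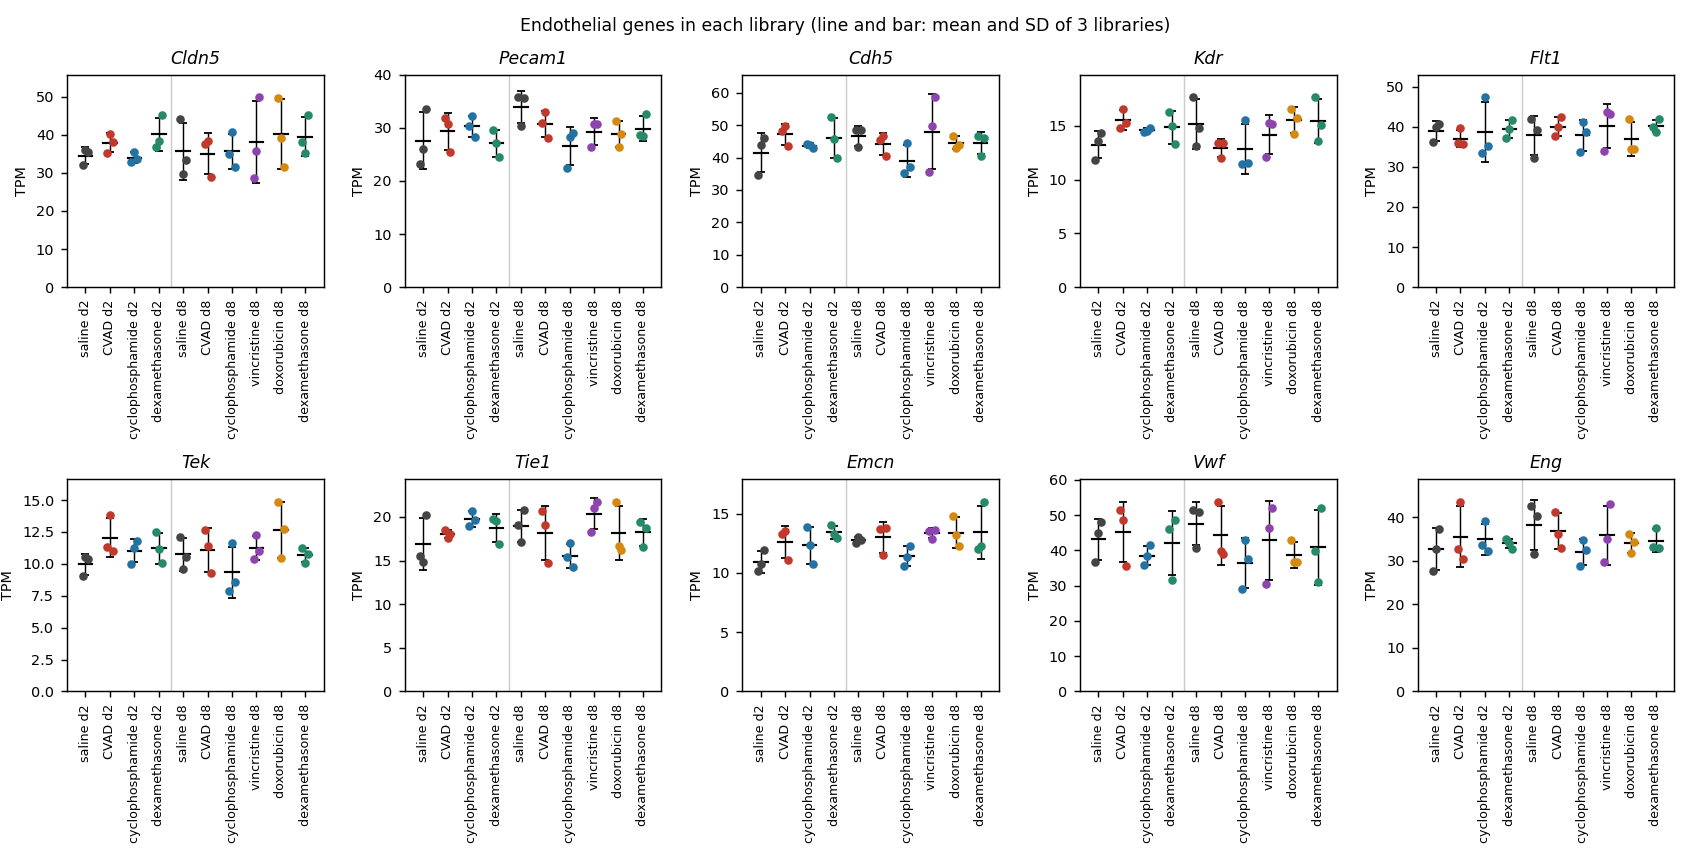
TPM (y axis, from 0) of each of the 10 genes in every library, by drug and day (x axis); points are libraries, the line and bar are the mean and SD of 3 libraries, and the grey line parts day 2 from day 8. The groups overlap for most genes; Pecam1 on day 8 is highest in saline, at 30.4 to 35.8 TPM.

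The junction genes come first. Cldn5 (ENSMUSG00000041378, chromosome 16, 18595597 to 18597012, plus strand) encodes claudin-5, the main tight junction claudin of barrier vessels. Its day 2 values were 32.1, 35.96 and 35.6 TPM in saline, 35.2, 40.3 and 38.2 in CVAD, 32.7, 35.5 and 33.7 in cyclophosphamide and 36.9, 38.3 and 45.05 in dexamethasone. Its day 8 values were 44.1, 29.7 and 33.3 TPM in saline, 37.7, 38.5 and 28.8 in CVAD, 34.9, 40.7 and 31.5 in cyclophosphamide, 28.7, 35.7 and 49.8 in vincristine, 49.8, 39.01 and 31.5 in doxorubicin and 38.2, 35.2 and 45.2 in dexamethasone. The 3 dexamethasone libraries of day 2 lay above the 3 of saline (log2 fold change 0.21, SE 0.17, limma, adjusted p = 0.994; 0.38 with the library term). On day 8 every drug group overlapped saline, and the vincristine libraries alone spanned the lowest and the highest value of all 30.

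Cdh5 (ENSMUSG00000031871, chromosome 8, 104828257 to 104871143, plus strand) encodes VE-cadherin, the adherens junction protein of endothelium. The day 2 libraries read 34.6, 43.9 and 46.2 TPM in saline, 48.3, 49.6 and 43.6 in CVAD, 44.3, 43.8 and 42.9 in cyclophosphamide and 52.4, 45.8 and 39.98 in dexamethasone. The day 8 libraries read 48.5, 43.2 and 48.5 TPM in saline, 45.4, 46.6 and 40.3 in CVAD, 35.3, 44.5 and 37.1 in cyclophosphamide, 35.6, 49.6 and 58.6 in vincristine, 46.7, 42.99 and 43.995 in doxorubicin and 46.6, 40.6 and 46.1 in dexamethasone. Cyclophosphamide on day 8 was the lowest group, and 1 of its 3 libraries lay above the lowest of saline (log2 fold change -0.26, 95% interval -0.54 to 0.012, limma, adjusted p = 0.885).

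Pecam1 (ENSMUSG00000020717, chromosome 11, 106545043 to 106641454, minus strand) encodes CD31, an adhesion molecule of endothelial contacts that platelets and some leukocytes also carry. On day 2 it was at 23.1, 26.02 and 33.6 TPM in saline, 31.9, 30.8 and 25.4 in CVAD, 30.3, 32.2 and 28.4 in cyclophosphamide and 29.6, 27.2 and 24.5 in dexamethasone. On day 8 it was at 35.8, 30.4 and 35.6 TPM in saline, 30.99, 33.1 and 28.2 in CVAD, 22.5, 28.3 and 29.1 in cyclophosphamide, 26.3, 30.7 and 30.7 in vincristine, 31.2, 26.5 and 28.9 in doxorubicin and 28.6, 28.4 and 32.6 in dexamethasone. The 3 cyclophosphamide libraries of day 8 lay below the 3 of saline (log2 fold change -0.34, SE 0.12, 95% interval -0.60 to -0.086, limma, adjusted p = 0.707). The other drugs of day 8 gave -0.22 for doxorubicin, -0.21 for vincristine, -0.18 for dexamethasone and -0.14 for CVAD on the log2 scale, and all 5 values rest on the same 3 saline libraries. Saline itself was higher on day 8 than on day 2 by 0.30 (limma, adjusted p = 0.634), with 2 of its 3 day 8 libraries above all of day 2; without saline replicate 1 of day 2 the difference was 0.19.

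The VEGF receptors followed. Kdr (ENSMUSG00000062960, chromosome 5, 76093487 to 76139118, minus strand) encodes VEGFR2, the receptor that carries most VEGF signalling. Its day 2 values were 11.8, 13.6 and 14.3 TPM in saline, 14.8, 16.5 and 15.2 in CVAD, 14.4, 14.5 and 14.8 in cyclophosphamide and 16.3, 14.97 and 13.3 in dexamethasone. Its day 8 values were 17.6, 13.1 and 14.8 TPM in saline, 13.4, 11.98 and 13.4 in CVAD, 11.5, 15.5 and 11.5 in cyclophosphamide, 12.1, 15.2 and 15.2 in vincristine, 16.6, 14.3 and 15.7 in doxorubicin and 17.6, 13.6 and 15.1 in dexamethasone. The CVAD and cyclophosphamide libraries lay above saline without overlap on day 2 and mostly below it, with overlap, on day 8. For CVAD the log2 fold change was 0.22 on day 2 (limma, adjusted p = 0.714) and -0.21 on day 8 (adjusted p = 0.911). With the library term the day 2 values turned, to -0.0036 in CVAD and -0.084 in cyclophosphamide. For CVAD the response of day 8 minus that of day 2 was -0.42 (SE 0.18, limma, adjusted p = 0.48), and -0.20 with the library term.

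Flt1 (ENSMUSG00000029648, chromosome 5, 147498414 to 147662821, minus strand) encodes VEGFR1, which binds VEGF tightly and acts largely as a decoy. The day 2 libraries read 36.1, 39.95 and 40.6 TPM in saline, 35.97, 39.6 and 35.6 in CVAD, 33.4, 47.3 and 35.3 in cyclophosphamide and 37.2, 39.4 and 41.7 in dexamethasone. The day 8 libraries read 41.9, 32.3 and 39.2 TPM in saline, 37.8, 39.9 and 42.4 in CVAD, 33.7, 41.2 and 38.7 in cyclophosphamide, 33.9, 43.6 and 43.2 in vincristine, 41.8, 34.5 and 34.6 in doxorubicin and 40.03, 38.8 and 41.9 in dexamethasone. Flt1 had the lowest coefficient of variation of the 10 genes over all libraries, while Emcn had the lowest SD within groups on the log2 scale (0.126, against 0.149 for Flt1). The 8 log2 fold changes of Flt1 against saline ran from -0.069 to 0.094. With the library term its day 2 values were 0.051 in CVAD, 0.096 in cyclophosphamide and 0.10 in dexamethasone. The ratio of Flt1 to Kdr within a library, which no scaling of the library can alter, was 2.71 ± 0.340 over 30 libraries (SD) and ran from a group mean of 2.38 in doxorubicin on day 8 to 3.11 in CVAD on day 8.

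The TIE receptors came next. Tek (ENSMUSG00000006386, chromosome 4, 94627526 to 94763213, plus strand) encodes TIE2, the angiopoietin receptor. On day 2 it was at 9.03, 10.5 and 10.4 TPM in saline, 11.3, 13.8 and 11.002 in CVAD, 10.02, 11.3 and 11.8 in cyclophosphamide and 12.5, 11.1 and 10.1 in dexamethasone. On day 8 it was at 12.1, 9.61 and 10.5 TPM in saline, 12.6, 11.4 and 9.28 in CVAD, 7.87, 11.6 and 8.56 in cyclophosphamide, 10.4, 12.2 and 11.02 in vincristine, 14.9, 10.5 and 12.7 in doxorubicin and 11.2, 10.1 and 10.8 in dexamethasone. The 3 CVAD libraries of day 2 lay above saline (log2 fold change 0.24, 95% interval -0.056 to 0.55, limma, adjusted p = 0.714; 0.037 with the library term), and every day 8 drug group overlapped saline.

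Tie1 (ENSMUSG00000033191, chromosome 4, 118328388 to 118347258, minus strand) encodes the partner receptor that modulates TIE2. Its day 2 values were 15.5, 14.8 and 20.3 TPM in saline, 18.5, 17.6 and 18.03 in CVAD, 18.95, 20.7 and 19.6 in cyclophosphamide and 19.7, 19.5 and 16.9 in dexamethasone. Its day 8 values were 19.1, 17.1 and 20.7 TPM in saline, 20.7, 19.1 and 14.7 in CVAD, 15.4, 16.99 and 14.2 in cyclophosphamide, 18.3, 21.1 and 21.7 in vincristine, 21.7, 16.7 and 16.2 in doxorubicin and 19.4, 16.5 and 18.7 in dexamethasone. Cyclophosphamide on day 8 lay just below saline without overlap (log2 fold change -0.27, SE 0.13, limma, adjusted p = 0.862). On day 2 cyclophosphamide gave 0.23 (adjusted p = 0.729), and the difference between the days was -0.50 (SE 0.18, limma, adjusted p = 0.379). These values were 0.023 and -0.30 with the library term. Tie1 stood at 1.67 ± 0.182 times Tek over the 30 libraries (SD).

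The remaining genes mark the vessel surface and its secretions. Eng (ENSMUSG00000026814, chromosome 2, 32536607 to 32572681, plus strand) encodes endoglin, a co-receptor for ligands of the TGF-beta and BMP family. The day 2 libraries read 27.7, 32.8 and 37.4 TPM in saline, 32.8, 43.6 and 30.4 in CVAD, 33.6, 39.1 and 32.2 in cyclophosphamide and 35.04, 34.2 and 32.8 in dexamethasone. The day 8 libraries read 42.6, 31.7 and 40.4 TPM in saline, 41.2, 36.2 and 33.1 in CVAD, 28.8, 34.7 and 32.4 in cyclophosphamide, 29.6, 34.97 and 43.1 in vincristine, 36.2, 31.7 and 34.4 in doxorubicin and 33.3, 37.7 and 33.1 in dexamethasone. Each drug group overlapped its saline, and the lowest value was -0.24 in cyclophosphamide on day 8 (limma, adjusted p = 0.918). Eng overlaps Fpgs, on the opposite strand at a mean of 28.4 TPM. The libraries keep strand, but how the authors' counting used it is not given in the sources used here, so reads of the pair may be split.

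Emcn (ENSMUSG00000054690, chromosome 3, 137046828 to 137137946, plus strand) encodes endomucin, a sialomucin of capillary and venous endothelium. On day 2 it was at 10.1, 10.7 and 11.9 TPM in saline, 13.2, 13.5 and 11.1 in CVAD, 13.8, 12.4 and 10.7 in cyclophosphamide and 14.1, 13.3 and 12.9 in dexamethasone. On day 8 it was at 12.5, 13.05 and 12.8 TPM in saline, 13.7, 11.5 and 13.8 in CVAD, 10.6, 11.4 and 12.3 in cyclophosphamide, 13.5, 12.9 and 13.7 in vincristine, 14.8, 13.2 and 12.2 in doxorubicin and 11.98, 12.3 and 16.01 in dexamethasone. The 3 dexamethasone libraries of day 2 lay above the 3 of saline (log2 fold change 0.28, SE 0.12, 95% interval 0.033 to 0.52, limma, adjusted p = 0.891). Cyclophosphamide on day 8 lay below saline without overlap, at -0.15 (adjusted p = 1).

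Vwf (ENSMUSG00000001930, chromosome 6, 125523737 to 125663642, plus strand) encodes von Willebrand factor, a clotting protein stored in endothelium and in platelets. Its day 2 values were 36.6, 44.9 and 47.9 TPM in saline, 51.4, 48.7 and 35.4 in CVAD, 35.9, 38.3 and 41.4 in cyclophosphamide and 46.04, 31.7 and 48.5 in dexamethasone. Its day 8 values were 51.3, 40.5 and 50.8 TPM in saline, 53.8, 39.8 and 39.03 in CVAD, 28.9, 42.8 and 37.6 in cyclophosphamide, 30.3, 46.3 and 51.98 in vincristine, 43.005, 36.6 and 36.6 in doxorubicin and 39.7, 30.98 and 52.1 in dexamethasone. Vwf was the most variable of the 10 genes, and each drug group overlapped its saline. Its lowest value against saline was -0.38 in cyclophosphamide on day 8, with the widest interval of the set (-0.81 to 0.038, limma, adjusted p = 0.908).

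Against saline on day 2, most of the 10 genes lay above saline, and so did the median of all genes. In CVAD 9 of 10 lay above saline, with a median log2 fold change of 0.12 beside 0.069 over all 25434 tested genes. None of the 10 passed an adjusted p of 0.05 (limma, Benjamini-Hochberg), beside 0.0432% of all genes, and none had an unadjusted p under 0.05, beside 8.19%. The 3 against 3 libraries did not overlap for 2 genes (Kdr and Tek, both higher), beside 13.5% of all genes. In cyclophosphamide 7 of 10 lay above saline with a median of 0.12 beside 0.062, none passed adjustment beside 0.0118%, none had an unadjusted p under 0.05 beside 7.51%, and 1 did not overlap (Kdr) beside 11.5%. In dexamethasone 8 of 10 lay above with a median of 0.15 beside 0.057, none passed adjustment beside 0.00393%, 1 had an unadjusted p under 0.05 (Emcn) beside 5.37%, and 2 did not overlap (Cldn5 and Emcn) beside 8.91%. These 3 comparisons share the saline libraries of day 2, whose first library was the second lowest of all 30 in summed level (237 TPM). Without that library the medians were 0.059 in CVAD, 0.011 in cyclophosphamide and 0.053 in dexamethasone. Fitted with the library term they were 0.039, 0.025 and 0.017, with 6, 6 and 8 of 10 genes above saline, and no gene had an unadjusted p under 0.05.

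Against saline on day 8, cyclophosphamide gave the lowest values. There 8 of 10 genes lay below saline, with a median of -0.24 beside -0.041 over all genes. The share above saline was 2 of 10 genes, beside 37.9% of all genes. None passed adjustment, beside 0.00786% of all genes. An unadjusted p under 0.05 was found for 2 genes (Pecam1 and Tie1), beside 5.76%, and 3 genes did not overlap (Pecam1, Tie1 and Emcn, all lower), beside 9.48%. Cldn5 and Flt1 were the exceptions, at 0.011 and 0.0039. In bulk tissue, fewer endothelial cells and less RNA of these genes per cell cannot be told apart.

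**Figure D2:**
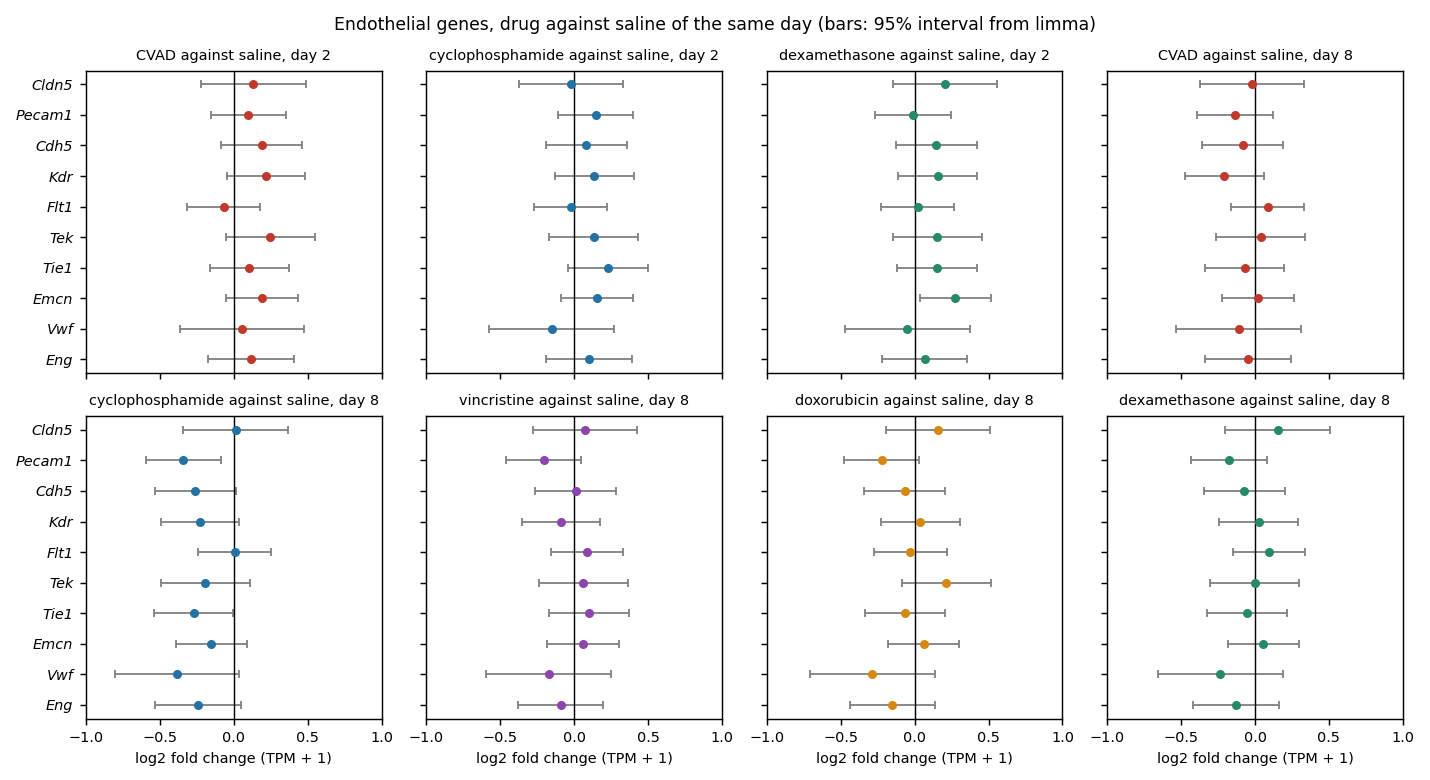
Log2 fold change on the log2(TPM + 1) scale (x axis) of the 10 genes (y axis) in each drug against the saline of its day; points are estimates and bars 95% intervals from limma over 30 libraries. All intervals but those of Emcn in dexamethasone on day 2 and of Pecam1 and Tie1 in cyclophosphamide on day 8 cross 0.

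The other day 8 drugs had medians closer to 0. In CVAD 7 of 10 lay below (median -0.058 beside 0.017), none passed adjustment beside 0% of all genes, none had an unadjusted p under 0.05 beside 5.98%, and none was without overlap beside 9.99%. In vincristine 4 of 10 lay below (median 0.034 beside 0.016), with no gene at an unadjusted p under 0.05 beside 3.44% and none without overlap beside 6.18%. In doxorubicin 6 of 10 lay below (median -0.047 beside -0.018), with none at an unadjusted p under 0.05 beside 3.35% and none without overlap beside 5.99%. In dexamethasone 6 of 10 lay below (median -0.028 beside -0.023), with none at an unadjusted p under 0.05 beside 3.26% and none without overlap beside 6.51%. No gene of the table passed adjustment in any of these 4 comparisons. Each of these 4 medians changed sign when 1 library was left out. They ran from -0.14 (without saline replicate 2) to 0.0024 (without CVAD replicate 3) in CVAD, and from -0.138 (without vincristine replicate 3) to 0.081 (without vincristine replicate 1) in vincristine. The range was -0.13 (without saline replicate 2) to 0.012 (without doxorubicin replicate 3) in doxorubicin, and -0.098 (without saline replicate 2) to 0.023 (without dexamethasone replicate 2) in dexamethasone.

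The combination was also set against each single drug. On day 2 CVAD had a median of 0.057 against cyclophosphamide (no gene of the 10 passed adjustment, beside 0.00393% of all; none at an unadjusted p under 0.05, beside 3.83%) and of 0.043 against dexamethasone (none beside 0%; none beside 3.66%), the latter -0.0014 with the library term. On day 8 CVAD lay above cyclophosphamide for 9 of 10 genes, with a median of 0.19 beside 0.064 over all genes; none had an unadjusted p under 0.05, beside 5.34%. Against vincristine the median was -0.031 (none beside 3.48%), against doxorubicin -0.011 (none beside 4.8%) and against dexamethasone -0.0093 (none beside 4.94%). The value farthest below 0 among these day 8 comparisons was Kdr against doxorubicin, at a log2 fold change of -0.25 (limma, adjusted p = 1).

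The response against same-day saline was compared between days for the 3 treatments given on both. For cyclophosphamide the day 8 response minus the day 2 response had a median of -0.33 beside -0.11 over all genes, with 8 of 10 genes below 0. None passed adjustment, beside 0%, and Pecam1 (-0.49, adjusted p = 0.367) and Tie1 had an unadjusted p under 0.05, beside 9.55%. For CVAD the median was -0.17 beside -0.046, none passed beside 0.0826%, and 1 gene (Kdr) had an unadjusted p under 0.05 beside 8.63%. For dexamethasone the median was -0.17 beside -0.083, none passed beside 0%, and none had an unadjusted p under 0.05 beside 4.92%. Saline itself was higher on day 8 for 9 of 10 genes, with a median of 0.17 beside 0.067; none passed beside 0.00393%, and 1 (Pecam1) had an unadjusted p under 0.05 beside 6.93%. All 4 contrasts use the same saline libraries, so their values are not independent. With the library term the medians of the responses were -0.23 in cyclophosphamide, -0.057 in CVAD and -0.048 in dexamethasone. In that order 10, 6 and 9 of 10 genes then lay below 0, beside 8, 9 and 9 without the term. Pecam1 in the cyclophosphamide response was at -0.28 with the term, and no gene of the 10 had an unadjusted p under 0.05 in these 3 responses.

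Over all 18 comparisons, 7 of 180 tests of the 10 genes had an unadjusted p under 0.05, beside 5.5% for all genes, and the smallest adjusted p was 0.367 (Pecam1, cyclophosphamide response). In limma's moderated F test over the 8 contrasts with saline, none of the 10 genes passed adjustment, beside 0% of all genes, and none had an unadjusted p under 0.05, beside 4.84%.

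By summed TPM of the 10 genes the groups ran from cyclophosphamide on day 8 (257 ± 29.3, SD, n = 3) through saline on day 2 (269 ± 30.8), cyclophosphamide on day 2 (278 ± 15.1), doxorubicin (283 ± 29.1), CVAD on day 8 (286 ± 22.2), dexamethasone on day 2 (287 ± 12.1) and on day 8 (287 ± 23.7), CVAD on day 2 (290.5 ± 25.2) and vincristine (293 ± 50.7) to saline on day 8 (298 ± 33.4). Each step between neighbours in this order was smaller than the SD within either group. Sorting by itself makes such steps small, so they do not compare the groups.

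The rest of the vessel programme was read from lists. Of 25 other endothelial genes, all tested, 21 lay below saline in cyclophosphamide on day 8 (median -0.13 beside -0.041) and 16 lay above it in CVAD on day 2 (median 0.11 beside 0.069). None passed adjustment in any of the 18 comparisons. Egfl7, an endothelial secreted factor, Cd34, a surface sialomucin, and Ecscr, a surface protein of endothelium, were the most abundant of the list. Erg, the ETS factor, was named after its values were seen. On day 2 it was at 13.02, 13.3 and 11.6 TPM in CVAD and 5.51, 5.58 and 7.38 in saline, without overlap. Its log2 fold change was 0.94 (SE 0.24, limma, adjusted p = 0.169), and 0.82 with the library term. The limma adjusted p was 0.0414 with library quality weights and 1 with the library term. On day 8 Erg was at 7.77, 6.75 and 3.86 TPM in CVAD and 12.7, 6.46 and 7.68 in saline, with overlap.

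The barrier and transport list had 20 of 21 genes tested. Abcg2, a drug efflux pump named for this reason, was listed at 0 in every library. Whether this 0, like that of Aqp4 below, reflects absent RNA or the processing of the data was not tested. No gene of it passed adjustment. On day 8 its median stood above 0 in all 5 drugs (0.033 to 0.12), with 17 of 20 genes above saline in CVAD. Plvap, which forms the diaphragms of leaky capillaries, had the lowest value of the list in each drug on day 8 and was named after its values were seen. It was at 39.9, 38.8 and 56.2 TPM in saline of day 8, 32.7, 28.1 and 26.4 in CVAD, 22.9, 30.4 and 31.1 in cyclophosphamide, 27.96, 35.1 and 36.8 in vincristine, 34.04, 29.3 and 29.9 in doxorubicin and 32.1, 34.1 and 30.9 in dexamethasone. All 15 drug libraries lay below the 3 of saline, and the log2 fold change was -0.65 in cyclophosphamide (limma, adjusted p = 0.442) and -0.60 in CVAD (adjusted p = 0.311). On day 2 saline was at 20.9, 28.9 and 30.3 TPM, below all 3 saline libraries of day 8 (log2 difference 0.73, adjusted p = 0.294), and on that day the 3 drugs lay above saline, at 0.29 to 0.41 for CVAD and cyclophosphamide and 0.23 for dexamethasone. These became 0.012, 0.13 and 0.039 with the library term. The day 8 values all rest on the same 3 saline libraries.

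The VEGF and angiopoietin pathway (21 of 21 tested) had 15 genes below saline in cyclophosphamide on day 8 (median -0.11 beside -0.041 over all genes). On each day 13 of 21 lay above saline in CVAD. The endoglin and BMP pathway (16 of 16 tested) had a median of 0.0039 in cyclophosphamide on day 8. Acvrl1, the ALK1 receptor that works with endoglin and was named after its values were seen, was at 15.7, 19.96 and 18.03 TPM there and at 35.4, 29.7 and 36.2 in saline, without overlap (log2 fold change -0.88, SE 0.24, limma, adjusted p = 0.482). Genes of inflamed endothelium (11 of 12 tested) had 8 below saline in cyclophosphamide on day 8, with a median of -0.35. Sema3g, an arterial semaphorin also named after its values were seen, was at 40.8, 42.9 and 41.2 TPM in CVAD on day 8 and 32.4, 26.2 and 26.3 in saline, without overlap (log2 fold change 0.55, SE 0.12, limma, adjusted p = 0.185). No gene of these 3 lists or of the arterial, capillary and venous list passed adjustment in any of the 18 comparisons.

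**Figure D3:**
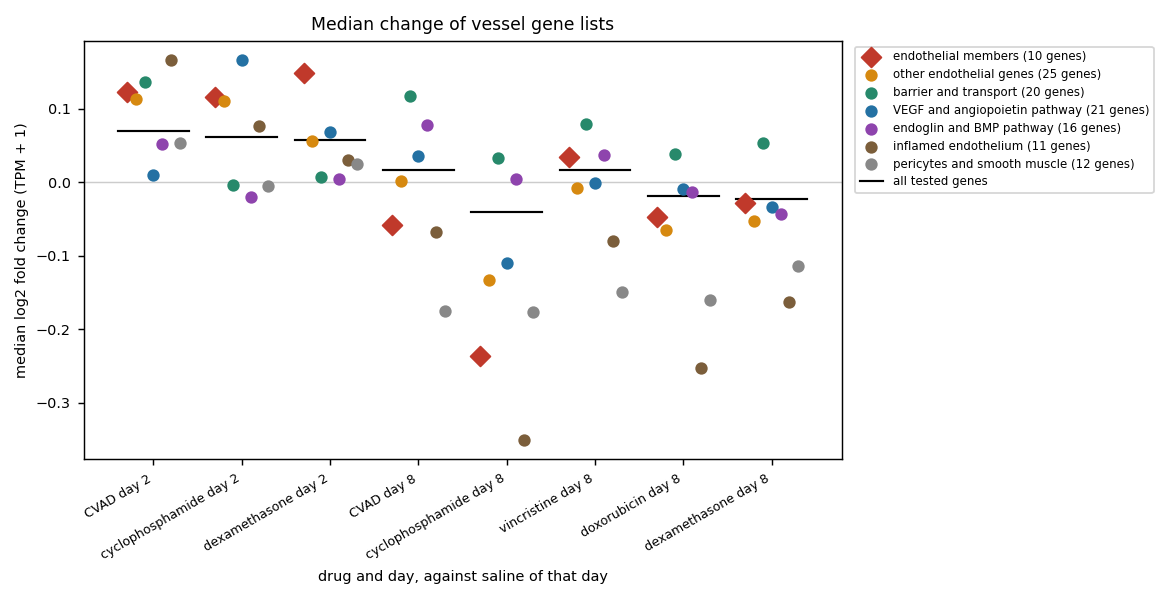
Median log2 fold change on the log2(TPM + 1) scale (y axis) of the 10 genes (diamonds), of 6 lists of genes linked to vessels (circles) and of all tested genes (black lines) in each drug against the saline of its day (x axis). The diamond is lowest in cyclophosphamide on day 8, at -0.24, beside -0.13 for the other endothelial genes.

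Markers of cells that share some of these genes were read in the same way. On day 8 the platelet and megakaryocyte list, whose cells carry Pecam1 and Vwf, had most of its 9 tested genes below the same saline libraries in all 5 drugs. The counts were 8 in vincristine (median -0.90), 8 in CVAD (median -0.86), 9 in doxorubicin (median -0.52), 9 in dexamethasone (median -0.33) and 9 in cyclophosphamide (median -0.28), and none passed adjustment. Its summed level was 74.2, 100.1 and 74.5 TPM in saline of day 8, 61.5, 65.1 and 68.1 in cyclophosphamide and 66.4, 59.9 and 42.0 in CVAD, and it ran from 41.0 to 100.1 over all libraries. The neutrophil line was read from 8 granule genes, known mainly from its maturing cells rather than from mature neutrophils, which carry Pecam1. All 8 lay below saline on day 8 in every drug, with medians of -1.80 in CVAD, -0.97 in cyclophosphamide, -0.94 in vincristine, -0.75 in doxorubicin and -0.42 in dexamethasone, and none passed adjustment. Their summed level was 260.2, 325 and 409.7 TPM in saline of day 8, 134.9, 209 and 159 in cyclophosphamide and 112, 102 and 78.2 in CVAD, so both groups lay below saline without overlap. On day 2 it was 118, 139.7 and 190.02 TPM in saline and 174, 344 and 217 in CVAD, and saline was higher on day 8 for all 8 genes (median 1.28).

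In the CVAD response, day 8 minus day 2, 3 of the 8 granule genes fell past the adjusted threshold, the only list genes called in any comparison. Camp, the cathelicidin, was at 17.6, 34.6 and 26.3 TPM in CVAD and 8.40, 11.5 and 17.8 in saline on day 2, and at 8.80, 8.69 and 9.15 in CVAD and 28.1, 40.3 and 45.6 in saline on day 8 (response -2.96, SE 0.49, limma, adjusted p = 0.0193). Ngp, a granule protein, gave -2.25 (adjusted p = 0.0283) and Elane, neutrophil elastase, gave -2.92 (adjusted p = 0.0444). With the library term the values were -2.07, -1.19 and -1.42, with an adjusted p of 1 for each (limma), and of 12 fits that each left out 1 library, 7 kept the call for Camp, 5 for Ngp and 2 for Elane.

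Lists of other cells of the vessel wall and its surroundings also had most genes below saline in cyclophosphamide on day 8. The same held for the table as a whole, where 37.9% of tested genes lay above saline and the median was -0.041. The macrophage list had 10 of 10 genes below saline there (median -0.29), with a summed level of 177, 233 and 251 TPM beside 307, 225 and 279 in saline. Pericyte and smooth muscle genes had 9 of 12 below saline there (median -0.18), summing to 426 ± 44.4 TPM beside 448 ± 23.6. Genes of lymphatic endothelium, which shares Tek and Kdr, had 5 of 7 below (median -0.13). Markers of bone and cartilage summed to 36.4 to 218 TPM over the libraries, of adipocytes to 39.4 to 192, of red blood cells to 0.818 to 211, of skeletal muscle to 85.4 to 1069 and of spinal cord to 15.3 to 123, with Aqp4 of the last list, at 0 in every library and named for this reason, beside 1944 to 2721 for ganglion neurons and glia. Vessels of those tissues carry the same endothelial genes. The muscle sum includes Pvalb, at 64.5 TPM or more in every library, while Acta1 of that list fell to 2.01 TPM. A low muscle sum therefore does not by itself show muscle RNA. The part of these cells and tissues in the values of the 10 genes was not tested.

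The 10 genes varied together across libraries. All 45 pairs had a positive Pearson r over the 30 libraries, with a median of 0.475 and a range of 0.198 (Flt1 with Emcn) to 0.741 (Kdr with Tek). After each group's mean was removed the median was 0.541, so the shared variation was also present between libraries of the same group. Cdh5 followed the mean of the other 9 most closely (r = 0.852) and Emcn least (r = 0.458). Libraries share composition and dissection, so these values carry no p.

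**Figure D4:**
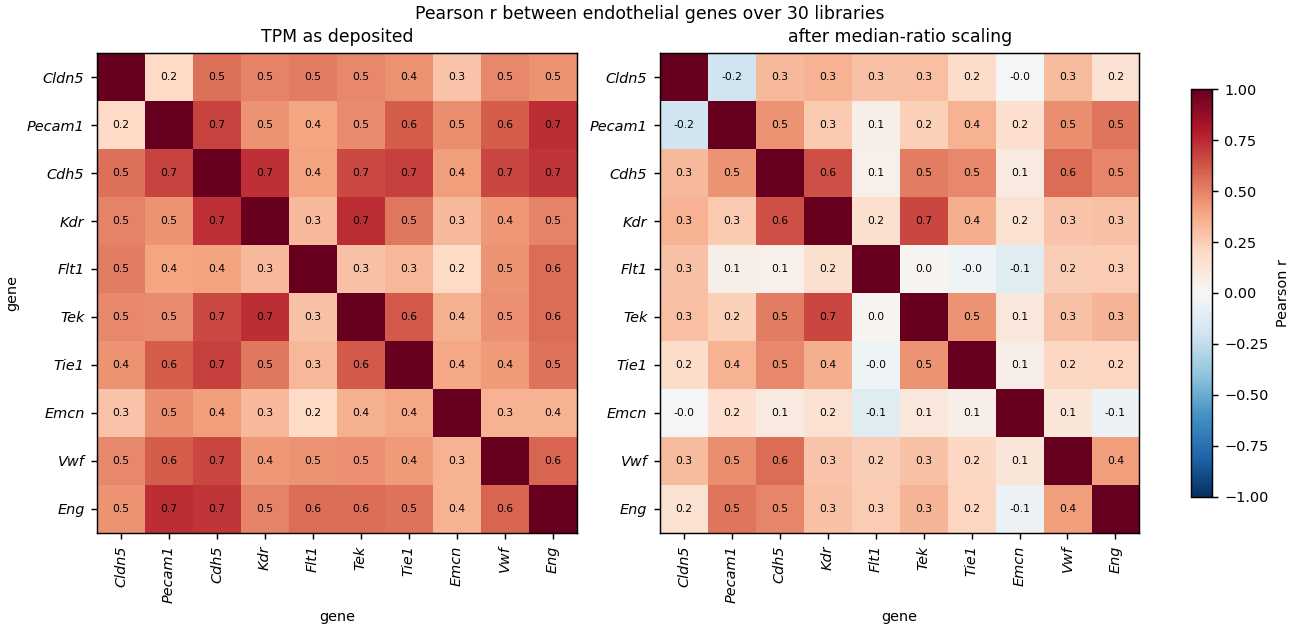
Pearson r between each pair of the 10 genes (both axes) over 30 libraries, of log2(TPM + 1) as deposited (left) and after median-ratio scaling (right). All 45 pairs are positive on the left and 40 of 45 on the right, where Kdr with Tek stays highest at 0.671.

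The level of the 10 genes moved with properties of the whole library. The mean log2 level of the 10 genes correlated at r = 0.794 with the log2 median-ratio scaling factor, which ran from 0.903 to 1.09 and measures how all genes stand in a library, and at r = 0.635 with the share of TPM on protein-coding genes, which ran from 60.5 to 73.8%. After median-ratio scaling the median r between pairs was 0.264, and Kdr with Tek (0.671) and Cdh5 with Kdr (0.642) were highest. On that scale the median in cyclophosphamide on day 8 was -0.19, with 8 of 10 genes below saline, and the medians of day 2 were 0.046 in CVAD, 0.047 in cyclophosphamide and 0.083 in dexamethasone.

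**Figure D5:**
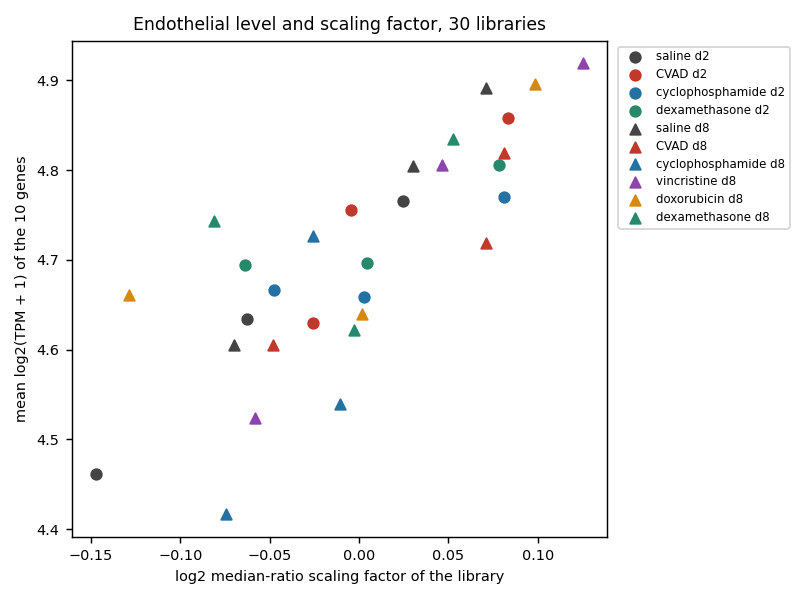
Mean log2(TPM + 1) of the 10 genes (y axis) against the log2 median-ratio scaling factor (x axis) of each of 30 libraries; circles are day 2, triangles day 8, and colours the drugs. Libraries with a larger factor have a higher endothelial level (r = 0.794).

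Other coding genes were ranked by their r with the mean of the 10 genes. Over 15304 of them the median r was 0.342 with TPM as deposited and 0.0082 after median-ratio scaling. The highest was Adgra2 (r = 0.90, mean 45.2 TPM), which encodes GPR124, a receptor of vessel growth in the brain. It was followed by Slc12a9 (0.85), Piezo1 (0.85), a mechanically gated channel, Hdac7 (0.85), Galnt4 (0.84), Csf1r (0.83), the growth factor receptor of macrophages, Dido1 (0.83), Ephb4 (0.82), the ephrin receptor of venous endothelium, Natd1 (0.82) and Trim56 (0.82). After median-ratio scaling Piezo1 stood highest at 0.80 and Adgra2 was at 0.76. The lowest were Crip3 (-0.46), Gbx1 (-0.44) and Arg2 (-0.43).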

How the data were processed

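Ribosomal RNA was depleted from 60 to 80 ng of total RNA and stranded libraries were made, per the labels' protocols. Tools listed in the submitters' processing notes are STAR 2.7.10b, StringTie 2.2.1 and FastQC 0.12.1, with GRCm39 and mm10 as builds; their roles were not stated. The authors deposited 1 table of TPM for all 30 libraries, with columns that sum to 999910 to 999941 over 56686 genes; the depth is unknown, since TPM keeps none. Here log2(TPM + 1) of the 25434 genes at 1 TPM or more in at least 3 libraries was fitted in limma 3.58.1 (R 4.3.3) with 1 mean for each of 10 groups, and p-values were adjusted by Benjamini-Hochberg over all tested genes, with a threshold of 0.05. A fold change on this scale understates low genes. The fit was tested on simulated data with independent noise for each gene and library, without the variation between libraries that genes share here. Alternatives were median-ratio scaling, no filter, protein-coding genes alone (15314), each library left out, a pseudocount of 0.1, quality weights, a model for each day, and, added after seeing the data, a term for libraries 1 to 8. The members and lists were chosen with earlier results of these data known. Of other genes, the text names by rule the 10 coding genes most like the members and the 3 least, and from a list those called or at most the 3 most abundant; genes named outside this rule are marked as such where they appear.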

Additional observations from a re-analysis of the deposited data

How the results depend on the processing

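None of the 10 genes passed the adjusted threshold in any comparison under any of 37 alternatives (2660 values, limma); the smallest adjusted p was 0.121, of Tie1 in the cyclophosphamide response with library quality weights. The median of the 10 genes in vincristine on day 8 was 0.034 and ran from -0.138 without vincristine replicate 3 to 0.0808 without vincristine replicate 1. In cyclophosphamide on day 8 it was -0.24 and ran from -0.34 without cyclophosphamide replicate 2 to -0.16 without saline replicate 1. On day 2 the medians against saline were 0.12 in CVAD, 0.12 in cyclophosphamide and 0.15 in dexamethasone; without saline replicate 1 they were 0.059, 0.011 and 0.053, and with a term for libraries 1 to 8 they were 0.039, 0.025 and 0.017. Of the 80 single values against saline, 5 turned direction with median-ratio scaling, 3 with coding genes alone, 6 with quality weights and 14 with the library term; none turned with the other pseudocount, without a filter or with a model for each day. The unadjusted p of Pecam1 and Tie1 in cyclophosphamide on day 8 and of Emcn in dexamethasone on day 2 went above 0.05 without at least 1 library. With the library term the unadjusted p of Emcn there and of Kdr, Pecam1 and Tie1 in the responses between days went above 0.05. No paired analysis was possible because the labels give no replicate numbers that link groups. The unknown depth limits what can be said of single libraries.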
